A study of Homo sapiens with 6 samples.

Results

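Haemoglobin carries oxygen in red blood cells as a tetramer of alpha-type and beta-type globin chains, each of which holds a haem group. The alpha-type genes (HBZ, HBA2, HBA1 and HBQ1) lie in 1 cluster on chromosome 16 and the beta-type genes (HBE1, HBG2, HBG1, HBD and HBB) in another on chromosome 11, and the genes of each cluster are switched during development, from embryonic to adult genes in the alpha cluster and by way of fetal genes in the beta cluster. AHSP encodes the alpha-haemoglobin stabilising protein, a chaperone that binds free alpha-globin until it meets a beta-type partner. Red cells and megakaryocytes share a progenitor, and some megakaryoblastic leukaemia lines keep part of the red cell programme. The account below covers these 9 globin genes and AHSP, which were taken by symbol from the 61852 genes of the deposited table, so there were 10 members, all of them found.

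The libraries came from MEG-01, an established human megakaryoblastic leukaemia line. A knockdown group carried a short hairpin RNA against the kinase MELK (sh2-MELK, n = 3), and a control group carried the pLKO.1 vector (n = 3). A single hairpin in 1 cell line was used, and every library bears the same batch label. RNA was selected for poly(A) tails and sequenced in pairs, and library totals ran from 18945176 to 20410845 counts in knockdown and from 20208255 to 21711313 counts in control. The submitters describe the 3 libraries of each group as independent biological replicates.

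The deposited counts appear to carry an added number. For 57.9% of all genes the 6 libraries held nothing but 0, 1, 2, 10 and 100, each about as often as the others, so a deposited value appears to be the reads of a gene with 1 of these numbers on top. It therefore fixes the reads only to within 100 counts, which matters less for HBB or HBA1 and a great deal for AHSP or HBG1. Even for HBA1, the 359 counts of knockdown replicate 1 allow as few as 259 reads. Each member is described below by its deposited counts, by the read counts those allow, and by an estimate that models the added number. MELK itself had 16, 124 and 26 counts in knockdown against 219, 206 and 238 in control, and its log2 fold change of -1.98 ± 0.69 (SE) did not pass the threshold (edgeR adjusted p = 0.104). The model of the added number gave -3.39 (95% interval -3.89 to -2.96) and passed. In edgeR it passed without knockdown replicate 2, at -3.33 (adjusted p = 0.00286), and with no filter on low counts (0.00961), and with limma-voom it was -2.48 (limma adjusted p = 0.0487). The defining platelet integrin gene of the line, ITGA2B, was well expressed, with a mean of 30693 counts over the 6 libraries. Of the 22 megakaryocyte and platelet markers, 3 held only the 5 added values in every library, namely GP1BB, PF4 and TREML1.

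Some members share reads. The annotated coding sequences of HBA1 and HBA2 were identical over 426 bases (stop codon left out), and 79.7% of the 100-base windows of the HBA1 transcript occurred unchanged in HBA2. HBG1 and HBG2, the fetal genes, differed at 2 of 441 coding bases, and 76.3% of HBG2 windows occurred in HBG1 or in overlapping transcripts. HBB and HBD, the adult beta-type genes, were 93.0% identical over 441 coding bases, at 31 differences, and shared no window of 100 bases and 2.94% of HBB windows of 50 bases. HBQ1 and AHSP shared none of either length with another gene. The sources used here do not say how reads that match both copies were counted. The HBA pair and the HBG pair are therefore uncertain one by one and are also given as sums, while HBB and HBD can be told apart by most reads. A sum does not recover reads that match both copies if those were left out of the counts.

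The summed level of the globin genes was lower in knockdown. The 9 genes had 102 ± 7.09 CPM in knockdown and 210 ± 17.5 CPM in control (SD, n = 3 each), where CPM are counts scaled to a common library size. These sums include the added numbers. The lowest sums that the deposited values allow were 65.7 to 74.8 CPM in the knockdown libraries and 158 to 192 CPM in the control libraries. The fall was not shared evenly. The alpha-type genes HBA1, HBA2 and HBQ1 fell most, HBB fell less, and HBD rose. In bulk RNA, fewer cells that express globin and less globin RNA per cell cannot be told apart. Of the 8 members that passed the filter on low counts, 4 were lower and 1 was higher in knockdown at an adjusted p below 0.05 (quasi-likelihood test of edgeR, adjusted by Benjamini and Hochberg over 28303 genes). Of those genes 16.5% passed, with 8.43% lower and 8.12% higher. Of the 5038 genes with mean counts of 500 or more, a range that holds HBA1, HBA2 and HBB, 77.0% passed in a fit of their own, with 38.9% lower and 38.1% higher. The median log2 fold change of the 8 members was -0.72, against 0.02 over all genes tested. HBE1 and HBZ did not pass the filter. The count of 5 became 3 members (HBA1, HBA2 and HBB) without control replicate 2, and 3 without knockdown replicate 3 where the filter was set anew, or 4 where the genes tested were held fixed.

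**Figure D1:**
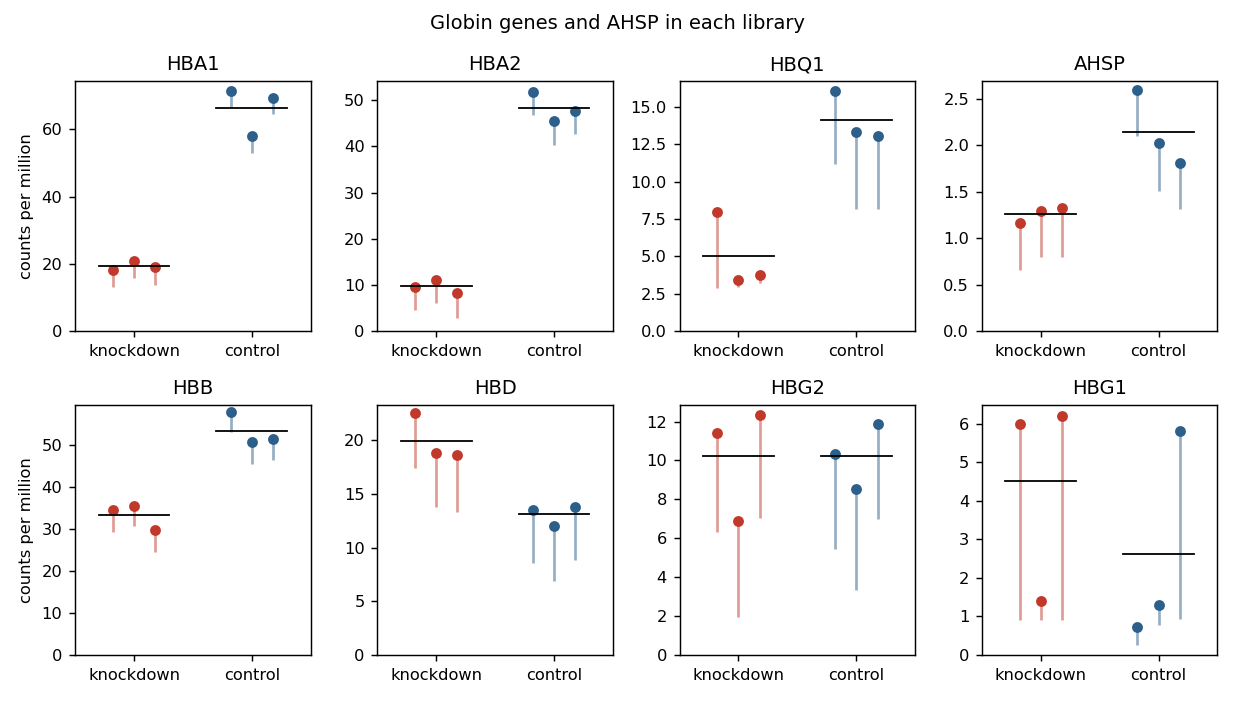
CPM (y axis) of 8 members in each library, knockdown in red and control in blue. Points are deposited values, the vertical line below each point reaches down to the lowest read count that value allows, and the black line is the group mean. For HBA1, HBA2, HBB and HBQ1 the groups stay apart along the whole of those lines, whereas for HBG1 and HBG2 they overlap.

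HBA1 and HBA2 encode the same alpha-globin chain of fetal and adult haemoglobin. HBA1 (chromosome 16, 176680 to 177522, GRCh38, GENCODE release 29) had 359, 419 and 359 counts in knockdown and 1458, 1119 and 1422 in control. Every knockdown library lay far below every control library, and the gap remained for any choice of added numbers. Mean levels were 19.4 ± 1.33 CPM in knockdown and 66.3 ± 7.18 CPM in control (SD, n = 3 each), and the log2 fold change was -1.78 ± 0.10 (SE) with an edgeR adjusted p of 5.11e-06. HBA2 (chromosome 16, 172876 to 173710) had 190, 225 and 156 counts in knockdown and 1056, 876 and 976 in control. Its groups were likewise apart whichever numbers were added, and the fall was steeper, at -2.31 ± 0.12 on the log2 scale (SE) with an edgeR adjusted p of 3.87e-06. Summed into 1 feature, the pair fell by 1.98 on the log2 scale.

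With the added number modelled, the change was -1.76 (95% interval -1.96 to -1.59) for HBA1 and -2.31 (-2.50 to -2.11) for HBA2. The intervals cover counting error, the added number and 1 fixed dispersion, taken from the genes with mean counts of 500 or more and applied to all genes. They do not cover a spread particular to a gene. The ratio of HBA1 to HBA2 counts was 1.89, 1.86 and 2.30 in the knockdown libraries and 1.38, 1.28 and 1.46 in the control libraries. The ratio was thus higher in all 3 knockdown libraries as deposited, but the added numbers allow 1.36 to 6.41 in knockdown and 1.16 to 1.62 in control, so the groups can overlap. Both genes are rich in GC, at 66.3% for HBA1 and 67.3% for HBA2, against a median of 53.0% over the genes with mean counts of 500 or more. With each library's trend in GC content and transcript length removed, the changes were -1.35 for HBA1 and -1.87 for HBA2, and both still passed.

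HBQ1 encodes theta-globin, an alpha-type gene of the same cluster that is transcribed in erythroid cells without a known place in haemoglobin. It is at chromosome 16, 180453 to 181181. It had 157, 69 and 71 counts in knockdown and 328, 257 and 267 in control. Knockdown replicate 1 was above the other two by somewhat less than 100, and even so the groups did not meet for any choice of added numbers. The log2 fold change was -1.48 ± 0.34 (SE, edgeR adjusted p = 0.0176), and with the added number modelled it was -2.11 (95% interval -2.40 to -1.68). The edgeR call was lost in the fits that left out knockdown replicate 2 or 3 or any 1 control replicate, with adjusted p from 0.0543 to 0.120, and held without knockdown replicate 1. HBZ, the embryonic alpha-type gene (chromosome 16, 152687 to 154503), had 3, 1 and 2 counts in knockdown and 10, 7 and 4 in control. The model placed it at 0.886 reads per library in knockdown (95% interval 0.0638 to 2.90) and 5.89 in control (2.13 to 9.29), too few to read a change from single values.

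AHSP lies on chromosome 16 but far from the alpha cluster (31527864 to 31528803). It had 23, 26 and 25 counts in knockdown and 53, 39 and 37 in control. All knockdown values were below all control values as deposited, yet values this low can lose up to 10 counts each, and the CPM they allow just overlap. In edgeR the log2 fold change was -0.76 ± 1.28 (SE) and did not pass (adjusted p = 0.918). The model, which weighs the 5 possible numbers at each value, gave -0.77 (95% interval -1.44 to -0.27), with 23.1 reads in knockdown and 39.3 in control, and there AHSP passed.

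HBB, the beta chain of adult haemoglobin, was the member with the highest mean count. It is on the minus strand of chromosome 11 (transcript at 5225464 to 5227071) and had 680, 717 and 562 counts in knockdown and 1184, 979 and 1055 in control. All knockdown libraries were lower, also for any choice of added numbers. The mean was 33.3 ± 3.10 CPM in knockdown and 53.4 ± 3.97 CPM in control (SD, n = 3 each), and the log2 fold change was -0.68 ± 0.09 (SE, edgeR adjusted p = 0.000665). The model gave -0.69 (95% interval -0.92 to -0.51), an interval that does not meet those of HBA1, HBA2 or HBQ1. With the GC and length trend removed HBB changed by -0.60.

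HBD encodes the delta chain, which forms the minor adult haemoglobin A2 with alpha-globin. It lies beside HBB on the same strand (transcript at 5232838 to 5234648) and had 444, 378 and 351 counts in knockdown and 275, 232 and 282 in control. HBD was the one member that passed in the upward direction, at 0.61 ± 0.13 on the log2 scale (SE) with an edgeR adjusted p of 0.0117, and its 3 knockdown values were all above its 3 control values. Taken alone, the added numbers allow its groups to overlap. With the filter set anew, the call was lost without knockdown replicate 1 (adjusted p = 0.173), without knockdown replicate 3 (0.0550) and without control replicate 2 (0.0991, edgeR), at 0.46, 0.62 and 0.49. With the genes tested held fixed, the log2 fold change of HBD passed without knockdown replicate 1 (0.51, adjusted p = 0.0478, edgeR) and without knockdown replicate 3 (0.66, 0.0297), but not without control replicate 2 (0.55, 0.0528). With the added number modelled it was 0.50 (95% interval 0.31 to 0.75) and passed.

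The promoter of HBD is shown because HBD was the only member matched in the RefSeq promoter table, 1 of 10. No promoter of HBB or of another member was at hand to set beside it. Whether its motifs bear on the change of HBD was not tested. The sequence below is the 250 bases before its RefSeq transcription start on the minus strand of GRCh38.p14 (chr11:5234484-5234733). It is written 5′ to 3′, with matches to the searched motifs in capitals. The GENCODE transcript of HBD used above starts farther upstream, at 5234648, which is inside this window.
HBD: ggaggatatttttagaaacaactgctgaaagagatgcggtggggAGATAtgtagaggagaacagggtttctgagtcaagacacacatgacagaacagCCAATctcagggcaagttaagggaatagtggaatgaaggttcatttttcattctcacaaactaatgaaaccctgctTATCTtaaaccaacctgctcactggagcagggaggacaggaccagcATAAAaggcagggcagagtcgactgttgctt
An ATAAA match of the TATA box type lies at -31 to -27 from the RefSeq start, and a CCAAT match at -153 to -149. AGATA matches of the GATA type lie at -206 to -202 and, on the opposite strand, at -77 to -73. Only the match at -206 to -202 lies before the GENCODE start, and the others lie within the span of that transcript. No match to CACCC, the core of the box bound by KLF factors, was present on either strand, and none of the matches overlap. In 35116 RefSeq promoter windows of the same 250 bases, searched on both strands, ATAAA occurred in 32.7%, CCAAT in 32.0%, AGATA in 21.99% and CACCC in 54.7%. These are matches of letters and do not show binding.

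Ratios within a library do not depend on how libraries are scaled. The ratio of HBD to HBB counts was 0.653, 0.527 and 0.625 in the knockdown libraries and 0.232, 0.237 and 0.267 in the control libraries. The mean was 0.602 ± 0.0659 in knockdown and 0.246 ± 0.0190 in control (SD, n = 3 each), 2.45 times as high. Whichever numbers were added, the ratio was at least 0.388 in every knockdown library and at most 0.295 in every control library, so the groups were apart. The ratio of the HBA pair to HBB, on counts per kilobase of transcript, was 0.879, 0.978 and 0.998 in knockdown and 2.31, 2.22 and 2.48 in control. It averaged 0.952 ± 0.0636 in knockdown and 2.34 ± 0.130 in control (SD, n = 3 each), and the values allowed by the added numbers also kept apart, at up to 1.21 in knockdown and from 2.00 in control. Its level would be too low in both groups if reads that match both HBA copies were left out. With 3 libraries against 3, the two-sided exact permutation test cannot give a p below 0.1, and both ratios gave 0.1, or 0.175 after adjustment over the 7 ratios compared.

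**Figure D2:**
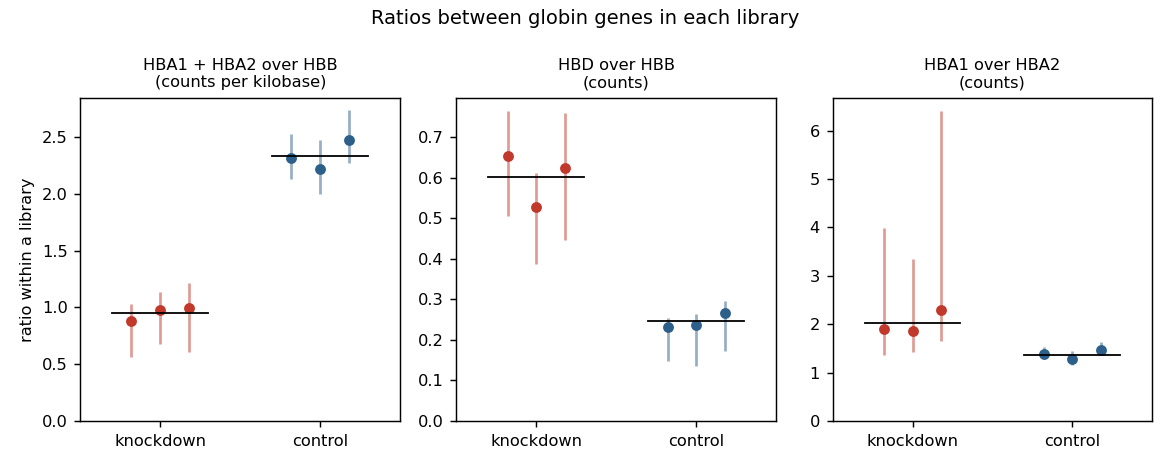
Ratios between globin genes within each library (y axis, no unit), knockdown in red and control in blue. Points are ratios of deposited counts, vertical lines span every ratio the added numbers allow, and the black line is the group mean. The lines of the groups do not meet for the HBA pair over HBB (0.952 in knockdown, 2.34 in control) or for HBD over HBB (0.602 in knockdown, 0.246 in control), but they do for HBA1 over HBA2.

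HBG2 and HBG1 encode the gamma chains of fetal haemoglobin. HBG2 (chromosome 11, transcript at 5253190 to 5254811) had 225, 139 and 233 counts in knockdown and 211, 164 and 243 in control. The groups overlapped, and the log2 fold change was 0.00 ± 0.26 (SE, edgeR adjusted p = 1.00). The model placed HBG2 at 118 to 149 reads in knockdown and 161 to 221 in control, a change of -0.59 (95% interval -0.81 to -0.25) that passed. Its range for knockdown lies well below knockdown replicates 1 and 3 as deposited, so this call rests on the model and not on the deposited values. HBG1 (chromosome 11, 5248079 to 5249859) had 118, 28 and 117 counts in knockdown and 15, 25 and 119 in control. Values above 100 occurred in both groups, and edgeR gave 0.79 ± 1.08 (SE, adjusted p = 0.823). It ran from 0.34 to 2.16 when 1 library was left out, with its highest value without control replicate 3, and passed in none of these fits. The modelled change was 0.18, with a 95% interval of -0.49 to 0.85, with 19.2 reads in knockdown and 16.9 in control. Summed, the HBG pair changed by 0.20 ± 0.33 (SE) in edgeR and did not pass.

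HBE1, the embryonic beta-type gene (chromosome 11, 5268345 to 5505652), had 0, 0 and 0 counts in knockdown and 1, 2 and 100 in control. All 6 are among the 5 added values, so no read counted for HBE1 was detectable. The model allows up to 0.699 counted reads per library in knockdown and 1.30 in control. Of the 100-base windows of its transcript, 71.9% also occur in the overlapping gene AC104389.4. If reads that match both genes were left out, these counts cannot show whether HBE1 was transcribed. HBM, the mu-globin gene of the alpha cluster, had 10, 100 and 2 counts in knockdown and 100, 4 and 1 in control, which is the pattern of added numbers with at most a few reads. The globins outside the clusters, MB (myoglobin), CYGB (cytoglobin), NGB (neuroglobin) and ADGB (androglobin), each had 1 library whose value needs at least 1 or 2 reads, and the model allowed at most 2.40 reads per library in either group.

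**Figure D3:**
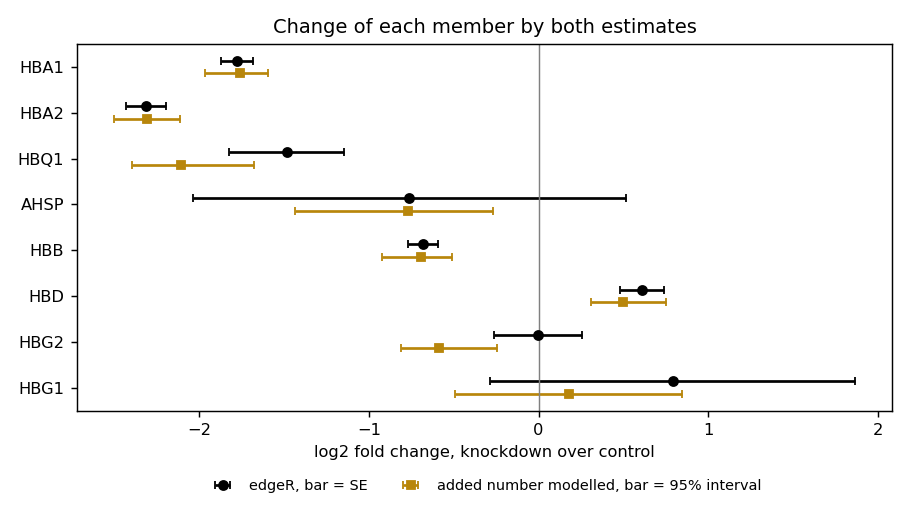
Log2 fold change of knockdown over control (x axis) for 8 members. Black circles are edgeR values with SE bars, and gold squares are estimates with the added number modelled, with 95% intervals. HBA1, HBA2 and HBB sit at the same place in both, HBQ1 moves from -1.48 to -2.11, HBG2 moves from 0.00 to -0.59, and the edgeR bars of AHSP and HBG1 cross 0.

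Levels were compared between genes as modelled CPM per kilobase of transcript. In knockdown the order was HBB at 51.5, HBA1 at 33.2, HBD at 23.3, HBA2 at 16.6, HBG2 at 10.9, HBQ1 at 6.02, AHSP at 2.22 and HBG1 at 1.24. In control it was HBA1 at 112.5, HBB at 83.4, HBA2 at 82.2, HBQ1 at 26.0, HBD at 16.5, HBG2 at 16.4, AHSP at 3.79 and HBG1 at 1.10. HBB stood above HBA1 in knockdown, where their 95% intervals were 45.0 to 56.5 and 29.3 to 36.2, and below it in control, at 76.9 to 90.1 against 104 to 121. Neighbours in this order whose intervals overlapped were AHSP and HBG1 in knockdown, and HBB and HBA2 as well as HBD and HBG2 in control. Because reads of the HBA pair and of the HBG pair may be shared, the places of HBA1 against HBA2 and of HBG1 against HBG2 are uncertain. If reads that match both copies were left out, the levels of both pairs would also be too low against the other members. Their places against HBB, HBD, HBQ1 and AHSP are therefore uncertain too.

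With the added number modelled, 9 members could be fitted and 7 passed, 1 higher and 6 lower, against 37.0% of the 26055 genes fitted in the same way, 18.0% higher and 19.0% lower. The groups were apart as deposited in 6 of the 8 members tested, against 30.7% of the genes tested. HBE1 and HBZ, which were not tested, were also apart as deposited. Their order has no meaning for HBE1, which held only added values, and little for HBZ, which had few reads. The groups were apart whichever numbers were added in 4 of the 8 members tested (HBA1, HBA2, HBB and HBQ1), against 14.7% of the genes tested.

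HBBP1, a pseudogene between HBD and HBG1 (chromosome 11, 5241105 to 5243537), is described because it overlaps exons annotated for HBD by 88 bases, and it was chosen after its values were seen. It had 766, 800 and 793 counts in knockdown and 1299, 1387 and 1503 in control, more than HBD in every library. Its level was 40.2 ± 1.63 CPM in knockdown and 69.7 ± 5.26 CPM in control (SD, n = 3 each), and it changed by -0.79 ± 0.07 on the log2 scale (SE) with an edgeR adjusted p of 6.44e-05. HBBP1 thus moved in the direction of HBB and against HBD.

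By distance over the 6 libraries, the genes most like HBB in centred log2 CPM, out of 5037 others with mean counts of 500 or more, were B3GAT3, GHDC, TRIB3, LAMTOR4 and FPGS. Their distances were 0.101 to 0.133, and their log2 fold changes ran from -0.73 to -0.60.

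Of the neighbours of the alpha cluster with mean counts of 500 or more, none changed as far as HBA1 or HBA2. Of 17 protein-coding neighbours, a list that also holds the globin gene HBM, 16 were tested. Of these, 7 were lower and 2 were higher, against 8.43% and 8.12% of all genes tested. Their median log2 fold change was -0.24. HBM was among the 16 and did not pass. In the fit of genes with mean counts of 500 or more alone, 6 of 10 were lower and 3 higher, against 38.9% and 38.1% of all genes in that fit. NPRL3, whose introns hold the main enhancers of the alpha-globin genes, was at -0.63 ± 0.06 (SE), the DNA glycosylase gene MPG at -0.53 ± 0.06, the nucleoside diphosphate kinase gene NME4 at -0.49 ± 0.04 and the spliceosome gene SNRNP25 at -0.48 ± 0.07, all past the threshold (edgeR adjusted p of 0.0018 or less). PGAP6 rose by 0.32 ± 0.04. Named after its values were seen, PDIA2, a protein disulfide isomerase gene with a mean of 84.0 counts, was at -3.46 ± 0.57 (SE, edgeR adjusted p = 0.00273), below the alpha-globin genes. Of 21 neighbours of the beta cluster, 9 were tested and 10 held only the 5 added values, among them most of the olfactory receptor genes. STIM1, the calcium sensor of the endoplasmic reticulum, was the 1 neighbour of the 9 past the threshold, against 16.5% of all genes tested, at 0.50 ± 0.04 (SE). It is not adjacent to the cluster, at 3854527 to 4093210 on chromosome 11, where HBB begins at 5225464. Without knockdown replicate 2, 2 of the 9 neighbours passed.

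**Figure D4:**
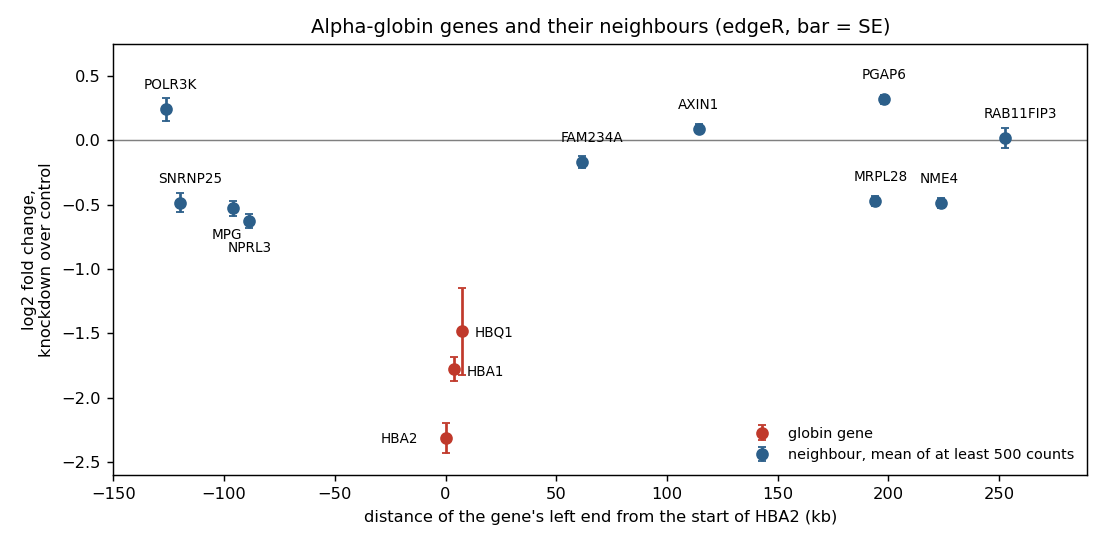
Log2 fold change of knockdown over control (y axis, edgeR, bars are SE) against distance from the start of HBA2 in kilobases (x axis), for globin genes in red and neighbours with mean counts of 500 or more in blue. HBA2, HBA1 and HBQ1 lie between -2.31 and -1.48, while the neighbours shown lie between -0.63 and 0.32.

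Factors that control globin genes moved both ways. Of 34 listed, 32 were tested, 11 were higher, 11 were lower and 10 did not pass, with a median log2 fold change of -0.24. Over all genes tested 16.5% passed, and 77.0% of those with mean counts of 500 or more in the fit of those genes alone, in which 12 of 25 factors were lower and 11 higher. KLF1, the erythroid factor that binds CACCC boxes and drives HBB, had the largest fall among well-measured members of the list, at -1.45 ± 0.06 (SE). LDB1, which bridges distant enhancers to globin promoters, was at -0.91 ± 0.04, IKZF1 at -0.88 ± 0.06 and the GATA1 cofactor gene ZFPM1 at -0.87 ± 0.11. KLF10 was higher by 1.01 ± 0.07, TAL1, a partner of GATA1 at erythroid enhancers, by 0.87 ± 0.03, the NuRD remodeller CHD4 by 0.81 ± 0.10 and the orphan nuclear receptor gene NR2F2 by 0.75 ± 0.04. All 8 passed with edgeR adjusted p of 0.000676 or less. BCL11A, the main repressor of the gamma genes, had a mean of 101 counts, and its -0.99 ± 0.40 (SE) did not pass (edgeR adjusted p = 0.174). It had 61, 63 and 75 counts in knockdown and 142, 129 and 135 in control, groups that did not overlap as deposited, and with the added number modelled it was -1.03 (95% interval -1.34 to -0.74) and passed. It was named outside the rule because of its role.

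**Figure D5:**
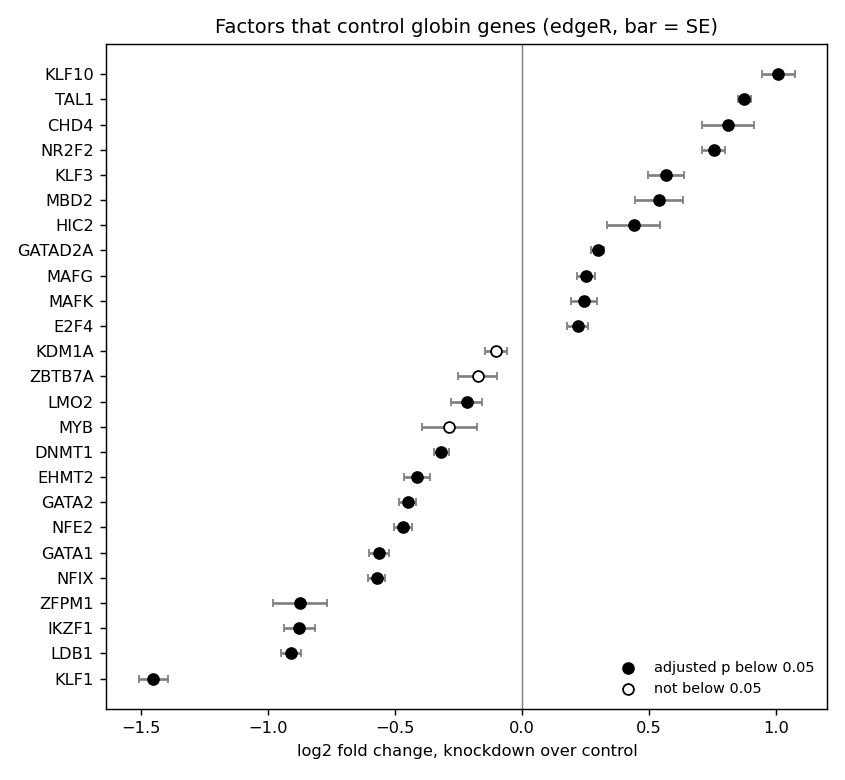
Log2 fold change of knockdown over control (x axis, edgeR, bars are SE) for factors that control globin genes and had mean counts of 500 or more. Filled circles passed the threshold and open circles did not. The factors lie on both sides of 0, from KLF1 at -1.45 to KLF10 at 1.01.

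Of 25 genes of haem synthesis and of the handling of free haem or alpha-globin, 11 were lower, 3 were higher and 11 did not pass. Over all genes tested, 8.43% were lower and 8.12% higher. The median log2 fold change of the 25 was -0.15. In the fit of genes with mean counts of 500 or more alone, 9 of 19 were lower and 4 higher, against 38.9% and 38.1% of all genes in that fit. The porphyrin pathway enzyme gene PPOX (-0.77 ± 0.06, SE) fell, as did the haem degradation genes HMOX1 (-1.23 ± 0.05) and BLVRB (-0.68 ± 0.03). UROD, another porphyrin pathway enzyme gene, rose by 0.31 ± 0.03 and the autophagy kinase gene ULK1, which takes part in the clearance of free alpha-globin, by 0.56 ± 0.07. NFE2L1, a transcription factor gene, was at 0.21 ± 0.03 and lost its call without knockdown replicate 1 (edgeR adjusted p = 0.134) or 3 (0.0637).

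Of 22 markers of red cells other than globins, 21 were tested, 12 were lower, 1 was higher and 8 did not pass. Over all genes tested, 8.43% were lower and 8.12% higher. The median log2 fold change of the 21 was -0.56. In the fit of genes with mean counts of 500 or more alone, 11 of 14 were lower and 2 higher, against 38.9% and 38.1% of all genes in that fit. RHAG, the Rh-associated glycoprotein gene, was at -1.92 ± 0.07 (SE), GYPC at -1.53 ± 0.05, the dematin gene DMTN at -1.27 ± 0.05 and RHCE at -1.22 ± 0.08, while the beta-spectrin gene SPTB was higher by 1.01 ± 0.04. Of 18 megakaryocyte and platelet markers tested, 5 were higher and 3 lower, against 8.12% and 8.43% of all genes tested. Their median was 0.03. Of 5 in the fit of genes with high mean counts, 2 were higher and 2 lower. SRGN (1.17 ± 0.09) and GP6 (0.52 ± 0.05) rose, and ITGA2B (-0.93 ± 0.03) and ITGB3 (-0.70 ± 0.06) fell, although ITGA2B did not pass with limma-voom (limma adjusted p = 0.155). Of 7 mast cell markers tested, 3 were higher and 3 lower, against 8.12% and 8.43% of all genes tested. The higher markers were KIT (2.93 ± 0.13), FCER1A (1.15 ± 0.08) and CPA3 (0.90 ± 0.12). Those lower were TPSAB1 (-2.73 ± 0.10), HDC (-0.56 ± 0.03) and GATA2 (-0.45 ± 0.03). KIT and CPA3, with mean counts of 335 and 303, were named outside the rule. In the fit of genes with high mean counts, which leaves out KIT and CPA3, 1 of 4 mast cell markers was higher and 3 were lower. The part of these markers in the globin changes was not tested.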

How the data were processed

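Poly(A)-selected RNA from 6 MEG-01 libraries was sequenced in pairs, per the labels' protocols. The authors deposited gene-level raw counts, as the columns are called per the file headers. Per the submitters' processing notes, which give no roles, STAR, HTSeq, fastp, FastQC, R 4.3.3 and DESeq2 were used with build GRCh38. How reads were assigned, whether strand was used and which annotation was taken are not stated there. A number from 0, 1, 2, 10 and 100 appears to have been added to each count.

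Gene symbols matched 61803 of 61852 IDs. Coordinates and transcripts are from GENCODE release 29, and the HBD promoter is from RefSeq. The test was that of edgeR 4.0.16 under R 4.3.3 (TMM, filterByExpr with a minimum count of 10, robust quasi-likelihood F-test, Benjamini-Hochberg adjusted p below 0.05 over all genes tested). CPM used TMM-scaled library sizes. In the model, each value was a negative binomial read count with a dispersion of 0.00293 plus 1 of the 5 numbers in equal shares, tested by likelihood ratio, with 95% profile intervals. That dispersion was the common value of the genes with mean counts of 500 or more and was held fixed for every gene. No fold change is given for genes whose values all lie within 5 counts above an added number. DESeq2 1.42.0, limma-voom (limma 3.58.1), other scalings and filters, the replicate block and leaving out each library were alternatives. The scripts were tested on simulated data.

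The members and lists were chosen with earlier results of these data known. The named genes are all members, MELK, HBM and the other globins, up to 4 genes per list and direction with mean counts of 500 or more, largest fold change first, and the 5 genes nearest to the member with the highest mean count. A gene that this rule names is not reported here. The GC and length correction and the ranges of allowed read counts were chosen after seeing the data.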

Additional observations from a re-analysis of the deposited data

How the results depend on the processing

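HBA1, HBA2 and HBB kept their direction and their call under every alternative in which they were fitted, at -1.93 to -1.35, -2.44 to -1.87 and -0.78 to -0.60 on the log2 scale. The summed HBA pair, at -1.98, and the summed HBG pair are counted with HBA1 and HBG1 in the next sentence. Over the 49 named genes, 1086 alternative values kept direction and call, 17 lost the call, 7 gained it and 7 turned sign. The 7 turns were all in HBG2, whose change was -0.00233 and became 0.0750 with library size alone, 0.01 without control replicate 1 (0.00827 with the genes tested held fixed), 0.12 and 0.13 without control replicate 3, and 0.21 in both fits without knockdown replicate 2. Over all fits that left out 1 library it ran from -0.20 to 0.21. The members past the threshold were 5, and 3 of 3 tested at mean counts of 500 or more, also with the GC and length trend removed. By construction those fits test fewer members. Leaving out 1 library gave 3 to 5 members, with 3 without control replicate 2, and 3 without knockdown replicate 3 or 4 with the genes tested held fixed. It gave 3591 to 4064 of all genes, and 1 to 2 beta-cluster neighbours, 6 to 8 alpha-cluster neighbours, 17 to 21 regulators, 13 to 15 haem genes, 11 to 13 erythroid and 6 to 8 megakaryocyte markers. The call of ITGA2B was lost with limma-voom (limma adjusted p = 0.155), and the call of NFE2L1 without knockdown replicate 1 (0.134, edgeR) or 3 (0.0637).

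All genes past the threshold numbered 4683, against 9576 with DESeq2 and 9651 with the added number modelled. Beta-cluster neighbours past the threshold were 1, against 3 with DESeq2, 4 with the added number modelled and 2 with the GC and length trend removed. Megakaryocyte markers were 8, against 4 at mean counts of 500 or more and 5 with the GC and length trend removed as well. The cause of these moves was not tested. Same-numbered libraries did not deviate together (correlations of 0.0998, -0.0124 and -0.0801 for numbers 1 to 3, and 2 of 6 libraries correlated best with their own number). With the replicate block 4182 genes passed, and 5 members, as without it. Depth limits HBG1, AHSP, HBZ and HBE1, where the added number exceeds or nears the reads.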
